A study of Mus musculus with 16 samples.

Results

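The genes described are 42 of the TGF-beta and BMP pathway, among 18193 genes measured in mouse islets with and without a conditional deletion of Insm1. They were chosen by name for their place in the pathway, with earlier results of these data known. The list holds 12 ligand genes, 11 receptor genes, 5 genes of extracellular regulators, the pseudoreceptor gene Bambi, 7 Smad genes, the 2 Smurf ubiquitin ligase genes and the 4 Id genes. All 42 had a probe set of their own, and the brightest probe set over all arrays represents each gene. Islets came from 8 mutant mice (RIPcreER; Insm1flox/lacZ) and 8 litter-matched controls (RIPcreER; Insm1flox/+), for which there were 8 arrays each. Insm1 encodes a zinc finger protein that regulates transcription in endocrine cells. All animals carried an inducible Cre driven by the rat insulin promoter, active in beta cells, and 1 floxed Insm1 allele. All received tamoxifen (25 mg, released over 21 days) when 4 to 5 weeks old, and islets were taken when they were 8 to 12 weeks old. Their genetic background mixed CBA/J, C57BL/6 and 129/ola. Controls were therefore not untreated animals and keep 1 allele that Cre does not cut, while mutants alone carry the lacZ allele, in every cell. Whole islets were measured, so a signal sums beta cells, the other endocrine cells and cells carried along in the preparation. In such bulk samples fewer cells of a type and less RNA per cell cannot be told apart.

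Ligands of this family bring together receptor kinases of type I and type II, and the activated pair phosphorylates receptor Smads, which enter the nucleus with their common partner Smad4. TGF-beta and activin ligands act through Smad2 and Smad3, and BMP ligands through Smad1 and Smad5. Secreted antagonists, the pseudoreceptor Bambi, inhibitory Smads and Smurf ligases restrain the signal, and the Id genes are classical BMP targets. In the pancreas the family is known for roles in endocrine differentiation and in beta-cell maturation and proliferation.

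Values are log2 signals, on which 1 unit is a doubling. Differences are mutant minus control, given with the standard error. Genes with an adjusted p below 0.05 (limma, Benjamini-Hochberg over all 18193 genes) are said to have risen or fallen. Same-numbered arrays deviated together, and a fit with the replicate number as a block is quoted where it changes a call. Array medians lay between 6.29 and 6.35, and dimmer signals are compressed by background. Of 8 beta-cell markers 6 fell, among them Ucn3 and Slc2a2, and their mean ran from 13.14 to 13.29 on control and from 12.55 to 12.87 on mutant arrays. The islet hormone genes Gcg, Sst and Ppy read 13.94 or higher on each array. Of 4 alpha-cell markers 2 rose, Irx1 (0.54 ± 0.12, adjusted p = 0.00972) and Irx2 (0.75 ± 0.17, adjusted p = 0.00791), and the mean of the 4 was 11.25 ± 0.16 (SD) in controls and 11.62 ± 0.18 in mutants. Of 3 delta-cell markers 1 rose, and 1 was higher when blocked by pair. When blocked by pair, 2 of 2 PP-cell markers were higher and 17 of 18 acinar markers lower, against 0 and 1 without the block. The part of these shifts in the results below was not tested. The mean of 18 immune markers was highest on mutant replicates 1 and 3 (9.15 and 9.06, control arrays 7.41 to 8.45). That of 18 acinar markers ran from 11.30 to 13.50 in controls and from 8.32 to 13.12 in mutants. Insm1 differed by −0.25 ± 0.11 (adjusted p = 0.182). Where its probes lie relative to the deleted part is not known here, so this signal does not check the genotype.

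Of the 42 genes, Bmp2, Bambi, Smad3 and Smad4 rose and Acvr1c fell. The 4 rises are 9.52% of the members, where 4.1% of all genes rose, and the 1 fall is 2.38%, where 4.66% of all genes fell. Smad4 is counted through a probe set that was its brightest only through the mutant arrays, and its other probe sets were not called. The median difference of the 42 was 0.06, against −0.01 over all genes, and 29 differences (69.0%) were above 0, against 48.1% of all genes. Because the list was made with earlier results known, these shares describe it and do not test for an excess. When blocked by pair, Tgfbr2, Smad7, Id2, Id3 and Id4 were called higher as well and Tgfbr3 lower. That makes 9 higher (21.4%, all genes 7.88%) and 2 lower (4.76%, all genes 9.71%). For Bmp2, Bambi and Smad3 the lowest mutant array lay above the highest control array, as for 1.19% of all genes. The other 37 genes had differences from −0.40 to 0.62. For 10 of the 42, the mean signal lay below the lowest array median in each group.

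**Figure D1:**
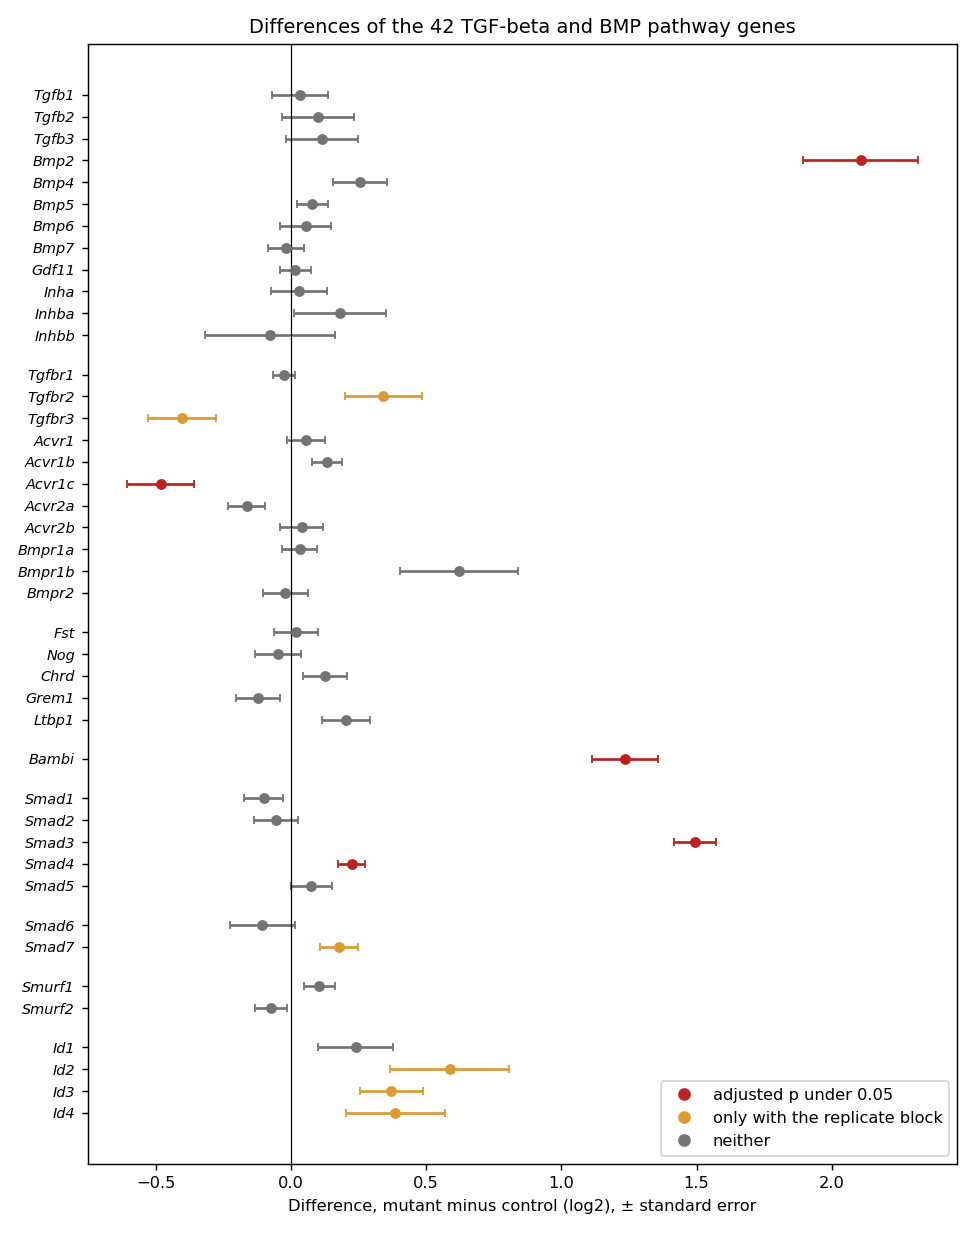
Differences of the 42 genes, mutant minus control on the log2 scale (x axis), ordered by role from ligands to Id genes, with bars for the standard error and n = 8 arrays per group. Bmp2 (2.11), Smad3 (1.49) and Bambi (1.24) stand to the right of the other genes, which lie between −0.48 and 0.62.

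Among the ligand genes only Bmp2 was called. It encodes a bone morphogenetic protein that signals through BMP type I receptors, and it rose 4.31-fold. Its signal ran from 4.65 to 5.89 (median 5.03) on control arrays and from 6.53 to 8.00 (median 7.35) on mutant arrays. The groups did not overlap, and the mutant was higher in 8 of 8 pairs, by 1.42 to 3.01. The difference was 2.11 ± 0.21 (adjusted p = 6.7e-06), and 11 of the 18193 genes had a larger rise. The control mean of 5.10 ± 0.41 (SD, n = 8) lay below the array medians and the mutant mean of 7.20 ± 0.51 above them. Bmp2 had a single probe set.

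The other 11 ligand genes had differences between −0.08 and 0.25. Bmp4, the closest relative of Bmp2, read 4.97 ± 0.14 in controls and 5.22 ± 0.26 in mutants, both below the array medians, and differed by 0.25 ± 0.10 (adjusted p = 0.132). The genes of the TGF-beta ligands differed by 0.03 ± 0.10 (Tgfb1), 0.10 ± 0.13 (Tgfb2) and 0.11 ± 0.13 (Tgfb3). The genes of activin and inhibin subunits read above the array medians in both groups. Inha, the inhibin alpha subunit gene, differed by 0.03 ± 0.10, Inhba, which encodes the activin A subunit, by 0.18 ± 0.17, and Inhbb, which encodes the activin B subunit, by −0.08 ± 0.24. Inhbb varied from 7.01 to 8.72 among mutant arrays. The remaining ligand genes, Bmp5, Bmp6, Bmp7 and Gdf11, had differences between −0.02 and 0.08.

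Of the 11 receptor genes, Acvr1c fell. It encodes ALK7, a type I receptor for activin-like ligands that is known from islets and fat. Its signal ran from 4.57 to 5.54 (median 4.97) in controls and from 4.26 to 4.88 (median 4.49) in mutants, below the array medians throughout. The ranges overlapped, while the mutant was lower in 8 of 8 pairs. The difference was −0.48 ± 0.12 (adjusted p = 0.0197), a 1.40-fold fall. Another of its 3 probe sets fell as well (−0.65 ± 0.11, adjusted p = 0.00124 over probe sets), and the third differed by 0.00 ± 0.06. The call was lost without pairs 1 to 3 (−0.43, adjusted p = 0.123) and with the acinar marker mean as a covariate (−0.46, adjusted p = 0.0565).

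The TGF-beta receptor genes did not move as a group. Tgfbr1, the type I receptor gene, read 10.37 ± 0.04 in controls and 10.34 ± 0.07 in mutants, with a difference of −0.03 ± 0.04. Tgfbr2, the type II receptor gene, ran from 8.04 to 8.48 (median 8.22) in controls and from 8.22 to 9.45 (median 8.46) in mutants, and was higher in 8 of 8 pairs. Its difference was 0.34 ± 0.14 (adjusted p = 0.167, or 0.0374 when blocked by pair). Its highest signals, 9.45 and 8.86, were on mutant replicates 1 and 3, the arrays with the highest immune marker means. With that mean as a covariate the Tgfbr2 difference was 0.15 (adjusted p = 0.419), and without pairs 1 to 3 it was 0.18 (adjusted p = 0.276). With the acinar mean as a covariate Tgfbr2 was called higher (adjusted p = 0.00401). Its dimmer probe sets differed by 0.04 ± 0.06 and 0.10 ± 0.05 and were not called. The part of immune cells in the Tgfbr2 signal was not tested.

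Tgfbr3 encodes betaglycan, a co-receptor that presents TGF-beta and binds inhibin. It ran from 8.43 to 8.89 (median 8.69) in controls and from 7.75 to 8.78 (median 8.26) in mutants, with overlapping ranges. It was lower in 7 of 8 pairs, a difference of −0.40 ± 0.12 (adjusted p = 0.0528, or 0.0175 when blocked by pair). Its dimmer probe set differed by −0.11 ± 0.10 and was not called. Acvr1b, the activin type I receptor gene, was higher in 8 of 8 pairs (0.13 ± 0.06, adjusted p = 0.172), and Acvr2a, an activin type II receptor gene, was lower in 7 of 8 (−0.16 ± 0.07, adjusted p = 0.156). Among the BMP receptor genes, Bmpr1b read 5.35 ± 0.28 and 5.97 ± 0.61, below the array medians, a difference of 0.62 ± 0.22 (adjusted p = 0.0919). It was called without mutant replicate 4 (0.76, adjusted p = 0.0192), its lowest mutant array. Its dimmer probe sets differed by −0.01 ± 0.07 and −0.02 ± 0.05 and were not called. Bmpr1a and Bmpr2, which were bright in both groups, differed by 0.03 ± 0.06 and −0.02 ± 0.08. Acvr1 and Acvr2b differed by 0.06 ± 0.07 and 0.04 ± 0.08.

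Bambi encodes a transmembrane protein that resembles a receptor without its kinase domain and blocks signalling, and it rose 2.35-fold. It ran from 10.60 to 11.39 (median 10.89) in controls and from 11.85 to 12.52 (median 12.14) in mutants, and the groups did not overlap. The difference was 1.24 ± 0.12 (adjusted p = 5.82e-06), with values of 0.63 to 1.80 within pairs. It was measured by a single probe set. Of the 5 genes of secreted regulators 0 passed in limma, with or without the block, and 1 had an unadjusted p below 0.05 without it and 2 with it, all of them higher. Fst, Nog and Grem1, which encode the antagonists follistatin, noggin and gremlin, differed by 0.02 ± 0.08, −0.05 ± 0.08 and −0.12 ± 0.08, at signals below the array medians. Chrd, the chordin gene, differed by 0.13 ± 0.08 and Ltbp1, whose product holds TGF-beta in its latent form, by 0.20 ± 0.09 (adjusted p = 0.182).

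Smad3, the receptor Smad gene of the TGF-beta and activin branch, had the lowest p of the 42. Its signal ran from 7.42 to 7.81 (median 7.52) in controls and from 8.84 to 9.32 (median 9.05) in mutants. The nearest arrays of the groups stood 1.03 apart, while the SD within them was 0.15 and 0.17. The difference was 1.49 ± 0.08 (adjusted p = 1.87e-09), or 2.82-fold, and 5 of the 18193 genes had a lower p. Within pairs it was 1.03 to 1.78. The rise was seen by 1 of 3 Smad3 probe sets. The others read 5.87 and 5.54 in controls, below the array medians, and differed by 0.09 ± 0.07 and −0.05 ± 0.05 (adjusted p = 0.522 and 0.626 over probe sets). Averaged over the 3, the difference was 0.51 (adjusted p = 1.95e-07).

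**Figure D2:**
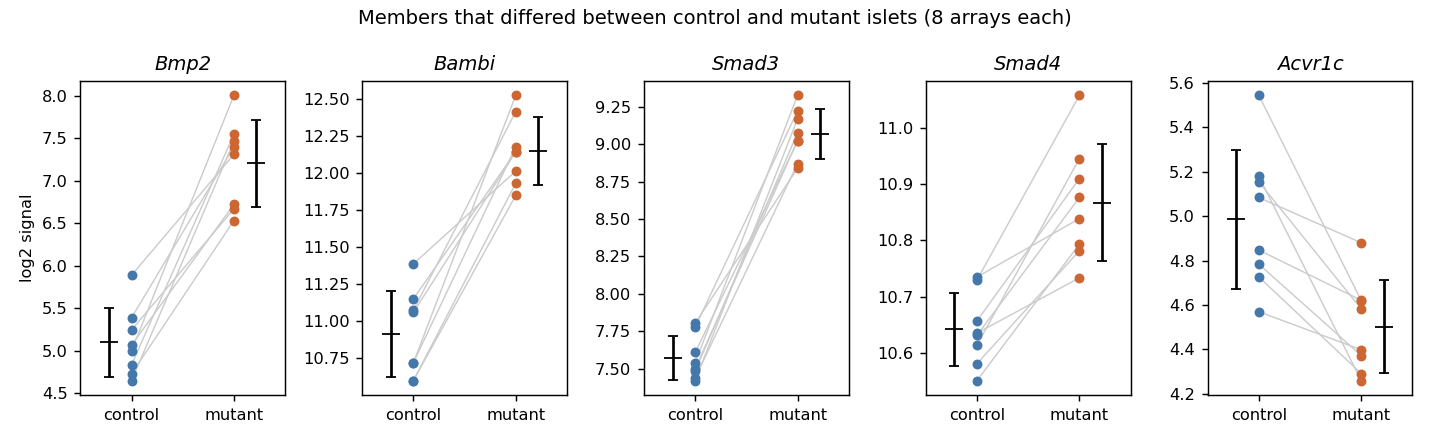
Log2 signal of the 5 genes called (y axis, own scale in each panel), with a point per array, grey lines joining arrays of the same replicate number, and black bars for mean ± SD. For Bmp2, Bambi and Smad3 the mutant points lie above all control points, and for Smad4 and Acvr1c the ranges meet or overlap.

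The other receptor Smad genes were not called. Smad2, which shares its branch with Smad3, read 8.62 ± 0.12 in controls and 8.57 ± 0.20 in mutants and differed by −0.06 ± 0.08. In the BMP branch Smad1 differed by −0.10 ± 0.07 and Smad5 by 0.07 ± 0.08. A dimmer Smad5 probe set rose (0.24 ± 0.07, adjusted p = 0.0365 over probe sets). Smad4, the common partner, rose 1.17-fold (0.22 ± 0.05, adjusted p = 0.00806). It ran from 10.55 to 10.74 (median 10.63) in controls and from 10.73 to 11.06 (median 10.86) in mutants, so that the ranges met at their ends, and was higher in 8 of 8 pairs. Its other 2 probe sets differed by 0.07 ± 0.05 and 0.02 ± 0.09 (adjusted p = 0.514 and 0.938 over probe sets). The first of these read 10.69 in controls and 10.76 in mutants, and the one used 10.64 and 10.87. The one used was thus the brightest over all arrays only through the mutant arrays, which limits this call. The call was lost in the mean of the 3 (0.10, adjusted p = 0.263) and without pairs 1 to 3 (0.24, adjusted p = 0.0792).

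The 250 bases upstream of Smad3 (minus strand, chr9:63757995-63758244, GRCm38.p6, RefSeq) are shown because its groups were the most clearly separated.
Smad3: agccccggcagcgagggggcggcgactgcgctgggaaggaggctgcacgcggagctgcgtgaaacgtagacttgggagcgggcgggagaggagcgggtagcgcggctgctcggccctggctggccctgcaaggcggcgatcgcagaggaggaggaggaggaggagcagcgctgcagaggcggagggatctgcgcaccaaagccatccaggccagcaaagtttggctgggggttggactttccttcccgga
Windows were searched on both strands for GTCTG, the short Smad-binding element, GTCTAGAC, its palindromic form, GGCGCC, a GC-rich element bound by BMP Smads, and CACGTG, an E-box. None of the Smad elements is in the Smad3 window. Of the 42 genes, 31 were matched by symbol in the RefSeq promoter table.

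The inhibitory Smads and the Smurf ligases, which act against the receptors, had small differences. Smad7 ran from 8.16 to 8.58 (median 8.28) in controls and from 8.35 to 8.78 (median 8.47) in mutants. It was higher in 7 of 8 pairs, by 0.18 ± 0.07 (adjusted p = 0.141, or 0.0439 when blocked by pair). Its dimmer probe set differed by 0.26 ± 0.08 (adjusted p = 0.0518 over probe sets). Smad7 was called in 3 of the 15 alternative fits, the block among them. Smad6, an inhibitor of the BMP branch, differed by −0.11 ± 0.12. Smurf1 differed by 0.10 ± 0.06 and Smurf2 by −0.07 ± 0.06.

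**Figure D3:**
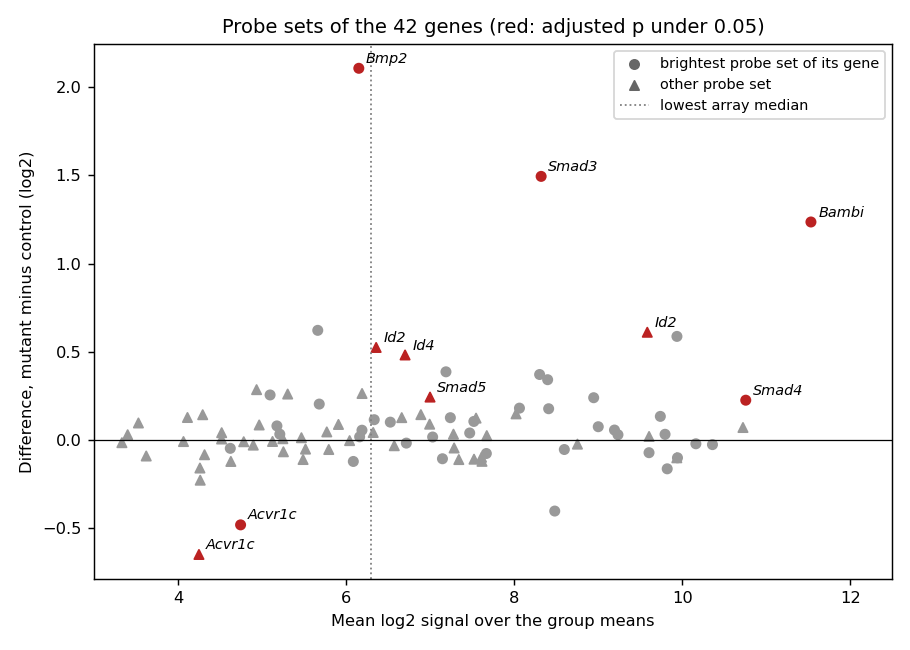
All 94 probe sets of the 42 genes, with mean log2 signal on the x axis and the difference, mutant minus control, on the y axis. Circles are the brightest probe set of each gene, triangles the others, and red marks an adjusted p under 0.05 over all probe sets, which 8 passed as higher and 2 as lower.

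The 4 Id genes, whose products bind and inactivate basic helix-loop-helix factors, all had differences above 0 (median 0.38). In limma 0 of 4 passed without pairing, where 4.1% of all genes rose. At an unadjusted p below 0.05 there were 3, a looser limit at which all genes were not counted. When blocked by pair 3 of 4 passed, in a fit that called 7.88% of all genes higher. Id2 ran from 8.95 to 10.41 (median 9.75) in controls and from 9.59 to 10.75 (median 10.40) in mutants. These ranges overlapped widely, but the mutant was higher in 8 of 8 pairs, by 0.08 to 1.21. The difference was 0.59 ± 0.22 (adjusted p = 0.116, or 0.00206 when blocked by pair). Its other 2 probe sets rose without the block (0.61 ± 0.16 and 0.52 ± 0.13, adjusted p = 0.0268 and 0.0228 over probe sets).

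Id3 ran from 7.93 to 8.37 (median 8.07) in controls and from 8.12 to 8.95 (median 8.57) in mutants and was higher in 8 of 8 pairs (0.37 ± 0.12, adjusted p = 0.0587, or 0.00327 when blocked by pair). Id4 ran from 6.44 to 7.63 (median 6.95) and from 6.88 to 7.83 (median 7.46) and was higher in 7 of 8 pairs (0.39 ± 0.18, adjusted p = 0.23, or 0.0053 when blocked by pair). Again the groups overlapped for both genes. A dimmer Id4 probe set rose (0.48 ± 0.14, adjusted p = 0.0427 over probe sets). Id1 ran from 8.49 to 8.99 (median 8.90) and from 8.57 to 9.65 (median 9.09), and differed by 0.24 ± 0.14 (adjusted p = 0.354, or 0.0663 when blocked by pair).

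Fits with marker means or an RNA quality measure as covariates gave other calls for the Id genes. With the immune mean as a covariate, Id1 and Id3 passed (0.40 and 0.48, adjusted p = 0.0345 and 0.00832), and with the acinar mean Id2 did (0.86, adjusted p = 0.0223). Blocked by pair with both means, none of the Id genes was called. Over the 15 alternative fits the Id2 difference ran from −0.02 to 0.86 and was called in 3, while Id1, Id3 and Id4 stayed above 0. Endothelial cells are known to express Id1 and Id3. Of 12 endothelial markers 0 passed in limma (1 higher and 1 lower at an unadjusted p below 0.05), and their mean ran from 8.27 to 8.59 on control and from 7.98 to 8.52 on mutant arrays. With it as a covariate Id3 differed by 0.40 (adjusted p = 0.0415). When the fit was blocked by pair and also held the 3′ minus 5′ signal of control probes, Id2, Id3 and Id4 differed by 0.10, 0.36 and 0.22 (adjusted p = 0.869, 0.384 and 0.68). That signal ran from 0.33 to 0.57 on control and from 0.28 to 0.47 on mutant arrays, and was lower on the mutant array of each pair. This fit therefore separates it poorly from genotype. The part of cell content and RNA quality in these signals was not tested.

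**Figure D4:**
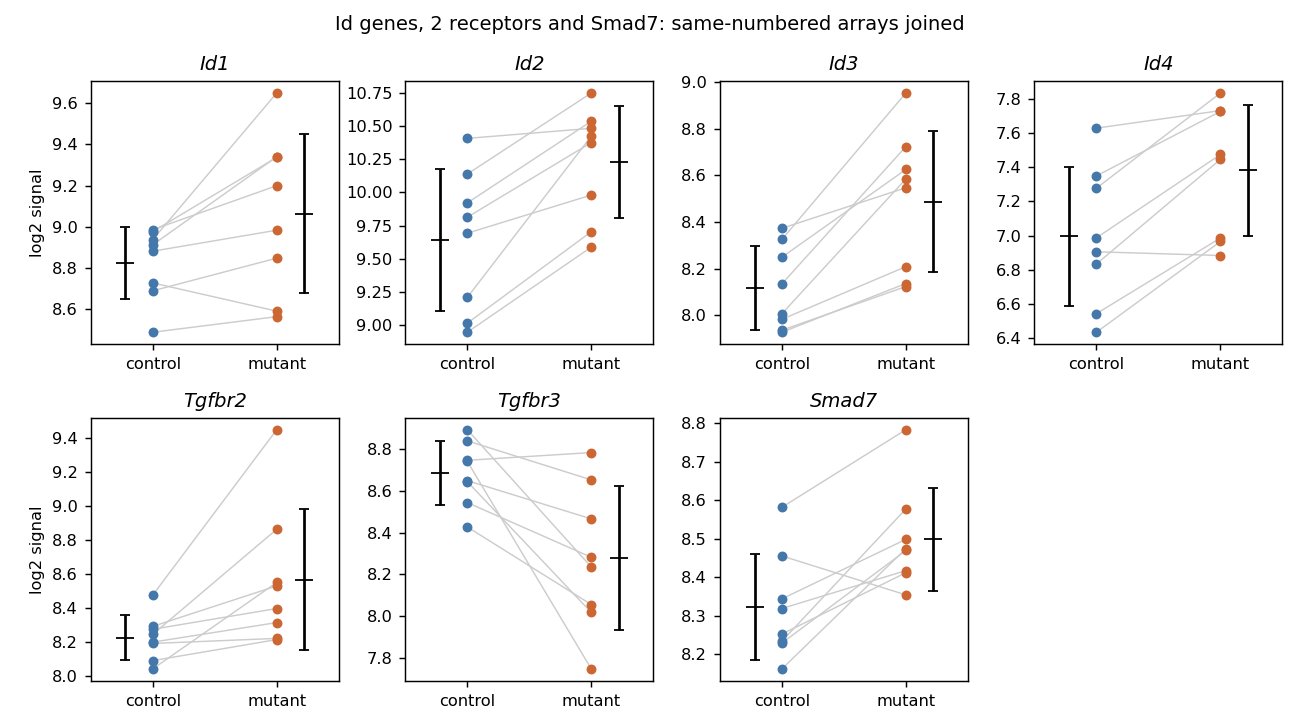
Log2 signal of the genes called only when blocked by pair and of Id1 (y axis, own scale in each panel), with a point per array, grey lines joining arrays of the same replicate number and black bars for mean ± SD. The groups overlap in each panel, while most lines run upward, and downward for Tgfbr3.

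The upstream windows of Id2 (minus strand, chr12:25096093-25096342), Id3 (plus strand, chr4:136143572-136143821) and Id4 (plus strand, chr13:48260866-48261115) are shown as the Id genes called when blocked by pair, with Smad elements in capitals (GGCGCC, and GTCTG or CAGAC, its form on the other strand).
Id2: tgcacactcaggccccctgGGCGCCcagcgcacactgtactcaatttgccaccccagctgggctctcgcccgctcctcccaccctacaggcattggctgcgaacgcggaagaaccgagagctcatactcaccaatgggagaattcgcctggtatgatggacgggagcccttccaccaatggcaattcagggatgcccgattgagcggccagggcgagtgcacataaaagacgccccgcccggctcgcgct
Id3: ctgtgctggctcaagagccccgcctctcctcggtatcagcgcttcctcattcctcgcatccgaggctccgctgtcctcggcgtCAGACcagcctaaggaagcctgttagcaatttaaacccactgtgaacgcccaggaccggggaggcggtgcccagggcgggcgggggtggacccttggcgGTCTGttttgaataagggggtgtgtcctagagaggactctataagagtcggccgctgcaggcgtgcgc
Id4: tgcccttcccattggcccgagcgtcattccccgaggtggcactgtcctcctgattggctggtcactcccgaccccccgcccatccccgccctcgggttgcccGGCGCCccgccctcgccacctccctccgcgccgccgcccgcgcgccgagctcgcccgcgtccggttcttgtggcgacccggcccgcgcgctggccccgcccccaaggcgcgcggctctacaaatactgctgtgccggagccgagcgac
GGCGCC stands 231 to 226 bases before the start in Id2 and 148 to 143 bases before it in Id4, and Id3 holds GTCTG once on each strand. Of 27025 promoter windows of this length, 9.57% held GGCGCC, 42.2% GTCTG, 0.174% GTCTAGAC and 6.04% CACGTG. Among the 31 member windows the counts were 8, 13, 0 and 4. Member windows had a median G and C content of 68.8%, against 52% over all windows. A match describes letters and shows no binding.

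Of 97 further genes of the family, listed by role, 87 were measured. Here 3 rose and 5 fell (3.45% and 5.75%, all genes 4.1% and 4.66%), and when blocked by pair 10 were higher and 8 lower (11.5% and 9.20%, all genes 7.88% and 9.71%). The median difference was 0.02. Gdf10, the gene of a BMP3-like ligand, rose 2.29-fold. It ran from 6.25 to 7.39 (median 6.81) in controls and from 7.64 to 8.69 (median 8.09) in mutants, without overlap, and differed by 1.19 ± 0.18 (adjusted p = 0.000474). Ltbp3, whose product binds latent TGF-beta, rose 1.27-fold, from 10.33 to 10.62 in controls to 10.66 to 10.94 in mutants, also without overlap (0.34 ± 0.05, adjusted p = 0.000455). Another Ltbp3 probe set, at 9.22 in controls, rose as well (0.26 ± 0.06, adjusted p = 0.0152 over probe sets). The remaining ones, below the array medians, differed by 0.03 ± 0.12 and −0.04 ± 0.06. In the mean of its probe sets the call was lost (0.15, adjusted p = 0.115).

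Both subunit genes of integrin alpha-v beta-8, which activates latent TGF-beta, fell. Itgb8 ran from 7.93 to 8.99 (median 8.65) in controls and from 6.82 to 8.01 (median 7.48) in mutants, and was lower in 8 of 8 pairs. The fall was 2.29-fold (−1.20 ± 0.16, adjusted p = 0.000146). Itgav ran from 11.27 to 11.70 and from 10.95 to 11.31, a 1.30-fold fall (−0.38 ± 0.06, adjusted p = 0.000948). Its dimmer probe sets differed by −0.21 to −0.01 and were not called. Without pairs 1 to 3 the Itgav call was lost (−0.26, adjusted p = 0.0642).

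Dcn encodes decorin, a matrix proteoglycan that binds TGF-beta and is abundant in fibroblasts. It ran from 7.19 to 8.98 (median 8.63) in controls and from 8.89 to 10.69 (median 9.51) in mutants, and rose 2.44-fold (1.29 ± 0.29, adjusted p = 0.00814). A second Dcn probe set, at 5.70 in controls and below the array medians, differed by −0.03 ± 0.06 and was not called. The mean of 14 stellate cell and fibroblast markers ran from 7.51 to 7.89 on control and from 7.51 to 8.21 on mutant arrays, with 2 called higher and 1 lower. With that mean as a covariate Dcn differed by 0.90 (adjusted p = 0.0476). Blocked by pair and with the acinar and immune means together it differed by −0.39, and with the 3′ minus 5′ signal by −0.03, and neither fit called it. Dcn was called higher in 13 of the 15 alternative fits and in all 16 fits without 1 array. The mutant was higher in 8 of 8 pairs.

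The remaining falls were in a co-receptor, a Smad regulator and a target gene, each in 8 of 8 pairs. Hjv, the gene of the BMP co-receptor hemojuvelin, differed by −0.37 ± 0.09 (adjusted p = 0.0149). Usp9x, which encodes a deubiquitinase of Smad4, differed by −0.31 ± 0.08 (adjusted p = 0.0192), and Cdkn2b, a cell cycle inhibitor gene induced by TGF-beta, by −0.43 ± 0.09 (adjusted p = 0.005). The calls of Hjv and Cdkn2b were lost without pairs 1 to 3 (−0.34 and −0.37, adjusted p = 0.172 and 0.0877), and those of Hjv and Usp9x in the mean of probe sets (−0.16 and −0.28, adjusted p = 0.0903 and 0.0737). Another Usp9x probe set fell as well (−0.33 ± 0.09, adjusted p = 0.0316 over probe sets), and the rest were not called. The other Hjv probe set, below the array medians, differed by 0.05 ± 0.05.

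**Figure D5:**
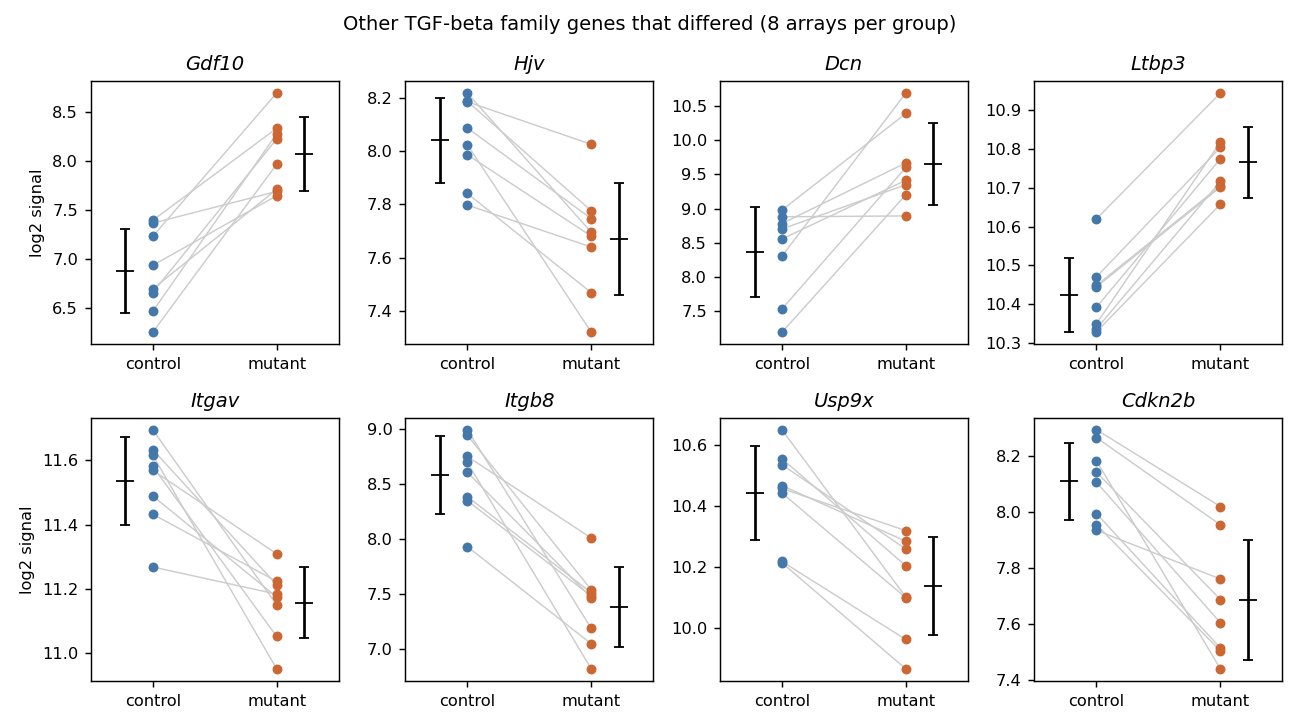
Log2 signal of the 8 further family genes called (y axis, own scale in each panel), with a point per array, grey lines joining arrays of the same replicate number and black bars for mean ± SD. Gdf10 and Ltbp3 separate the groups, and Itgb8 has the largest fall of the 8 (−1.20).

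Of 16 measured target genes outside the Id family, Cdkn2b alone was called without pairing. Blocked by pair, Ccn2, Klf10 and Junb were higher and Tagln and Cdkn2b lower, in a fit that called 7.88% of all genes higher and 9.71% lower. With the 3′ minus 5′ signal added to that fit, none of these 5 was called. Of the 87 family genes 0 were then higher and 1, Itgb8, lower (all genes 0.561% and 0.748%). At an unadjusted p below 0.05 in limma, 8 were higher and 7 lower, a looser limit at which all genes were not counted. The target genes other than Cdkn2b are named after their values were seen. Klf10, an early TGF-beta response gene, differed by 0.67 ± 0.24 (adjusted p = 0.0967, or 0.00701 when blocked by pair), and Ccn2, the connective tissue growth factor gene, by 0.40 ± 0.16 (adjusted p = 0.139, or 0.00635 when blocked by pair). Junb differed by 0.37 ± 0.21 (adjusted p = 0.333, or 0.0115 when blocked by pair). Tagln, a smooth muscle gene, differed by −0.46 ± 0.16 (adjusted p = 0.0821, or 0.00109 when blocked by pair). The mean of 4 smooth muscle markers ran from 6.45 to 6.79 on control and from 6.14 to 6.68 on mutant arrays, and its part in the Tagln signal was not tested.

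The calls of Bmp2, Bambi and Smad3 held with each of the 16 arrays left out, and without pairs 1 to 3 (2.12, 1.20 and 1.55), where 3 members were higher (2.09% of all genes) and 0 lower (2.46%). Blocked by pair with the 3′ minus 5′ signal they were again the 3 called higher (adjusted p = 0.032, 0.0307 and 0.00559), where 0.561% of all genes were higher and 0.748% lower. Blocked by pair with both the acinar and immune means they differed by 2.24, 1.04 and 1.03 and were not called (adjusted p = 0.529, 0.663 and 0.346). In limma that fit called 0.011% of all genes higher and 0% lower, and 0 members either way. At an unadjusted p below 0.05, 5 members were higher and 0 lower. All genes were not counted at that looser limit, so the 5 have no share to stand beside. With the acinar mean alone 7 members were higher (4.72% of all genes) and 0 lower (6.76%). With median centring and with the mean of probe sets 2 members were lower, against 4.98% and 4.29% of all genes.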

How the data were processed

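RNA of whole islets (Trizol, 150 ng labelled) was hybridised to Affymetrix Mouse430_2 arrays, per the labels' protocols. The authors deposited log2 signals for 45101 probe sets. How background was corrected and arrays were normalised is not given in the sources used here, and the log2 scale was read from the range of the values. Of these probe sets 34945 name 1 gene in the platform annotation, with 34741 symbols updated through RefSeq (GRCm38.p6). No filter was applied.

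Mutants and controls were tested, two-sided, by limma 3.58.1 (R 4.3.3, lmFit and eBayes with trend). On simulated data for this comparison (18193 genes), values were drawn independently for each gene and array, without pairs or shifts in cell content. There 84 of 100 genes changed 1.5-fold and 99 of 100 changed 3-fold were recovered, and 7.58% of the calls were false. These rates need not hold for the real arrays, whose values were not independent. Deviations from group means correlated between same-numbered arrays in each of 8 pairs (0.237 to 0.735), against a median of −0.098 between other numbers. Of 16 arrays, 13 correlated best with the array of their own number in the other group. The numbers were therefore taken as pairs, although the labels do not say what a shared number means. The pairing was thus read from the same data as the blocked calls. The number of arrays limits precision.

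Members and gene lists were chosen with earlier results of these data known. Named with full values are members called with or without the block, with up to 4 others per role, and the called genes of the wider family. The 15 alternatives beside the 16 fits without 1 array changed normalisation, filter, probe sets, variance model, weights, pairing, covariates or arrays.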

Additional observations from a re-analysis of the deposited data

Results flagged for a closer look

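Among 102 groups of 8 arrays (the 42 genes, the 8 called family genes and Insm1, in each genotype), 4 held an array far from the other 7, where chance gives about 1 in 20. For Bmp6, mutant replicate 1 read 5.68, and the other 7 arrays 6.15 to 6.46. For Gdf11, control replicate 4 read 6.85, and the other 7 arrays 6.99 to 7.10. Smurf1 on that same array read 7.26, and the other 7 arrays 7.42 to 7.56. Smurf2 on control replicate 2 read 9.92, and the other 7 arrays 9.47 to 9.66. Gdf11, Smurf1 and Smurf2 were not called under any of 31 alternatives, nor Bmp6 under the 30 in which it was tested.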

How the results depend on the processing

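For the 5 called members, 142 of 153 recomputed differences kept direction and call, 11 lost the call and 0 turned. Of the 37 others, 28 were called under no alternative. Signs that turned without any call are not counted here. With the replicate block 9 members were higher (from 4) and 2 lower (from 1), 10 further family genes higher (from 3) and 8 lower (from 5), and 3200 of all genes changed (from 1594). With the block and both marker means these counts were 0, 0, 0, 0 and 2. With the block and the 3′ minus 5′ signal, 0 members were lower, 0 family genes higher and 1 lower, and 238 of all genes changed. With the acinar mean 7 members were higher and 0 lower, and 6 family genes higher. The family genes called higher were 5 with the immune mean, 5 with array weights and 5 without dim genes. Members called lower were 2 with median centring and 2 with the mean of probe sets, where 3 family genes were lower. Without pairs 1 to 3, 0 members and 3 family genes were lower and 828 of all genes changed. Testing every probe set called 2398. With 1 array left out, counts ran from 4 to 5 and 1 to 3 for members higher and lower, from 3 to 6 and 5 to 7 for family genes, and from 1324 to 1645 over all genes. Family genes called higher numbered 5 without control replicate 1, 5 without mutant replicate 1, 6 without mutant replicate 7 and 5 without mutant replicate 8. Tgfbr3 was lower without control replicate 5, mutant replicate 2 or mutant replicate 6, and Acvr2a too without mutant replicate 6 (−0.21, adjusted p = 0.047). Bmpr1b was higher without mutant replicate 4, Id2 without control replicate 1, and Id3 without control replicate 4 or mutant replicate 1, 3 or 6. Dcn turned to −0.39 with the block and both marker means and to −0.0297 with the block and the 3′ minus 5′ signal. The cause was not tested. Bmp2 and Acvr1c were not tested without dim genes, and signal near background limits both.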
